A study of Oryza sativa Indica Group with 27 samples.

Results

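Isocitrate lyase (ICL) of indica rice seedlings was read by 1 probe set of 57194 tested on the array. It was found by looking up ICL among gene symbols and synonyms, which gave 1 gene (LOC4343441) of 17905 measured genes. The gene was chosen by its measured intensity under salt against control, which went up in all 3 cultivars, so its salt against control values are given below as a description, with no test. Tests were kept for 6 h against 3 h of salt, for cultivars set against each other, and for differences between cultivars in the response. The choice was not made on these comparisons, but the response differences are built from the salt against control values that it used. These tests still draw on the same 27 arrays as the choice.

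Seedlings were 7 days old, grown in hydroponic medium and harvested whole. They were from the salt-tolerant cultivars Nonabokra and Pokkali and the salt-susceptible IR29, and within each cultivar stood in 200 mM NaCl for 3 h or 6 h at 28 °C or, as unstressed controls, stayed in medium for 6 h, so there was 1 control time for both salt times. That gave 9 groups of 3 arrays, labelled as biological replicates. The free-text description of the 3 h samples names drought, but their titles, characteristics and treatment text name salt, and salt was used. In RNA from whole seedlings, fewer cells of a type and less RNA per cell cannot be told apart.

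ICL splits isocitrate into succinate and glyoxylate, and malate synthase (MS) then joins glyoxylate to acetyl-CoA to give malate. These are the steps that set the glyoxylate cycle apart from the citric acid cycle, and they let plants keep the carbon of fatty acids for making sugar. The cycle is best known in oil-rich tissues of germinating seeds and in senescing leaves, with its own enzymes housed in peroxisomes of the kind called glyoxysomes.

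ICL moved between a low level in growth medium and a much higher level under salt in each cultivar. Values are the authors' linear intensities, which have no absolute unit. In Nonabokra the 3 control arrays read 271.8, 243.1 and 261.9, the 3 h arrays 4068, 3457 and 3539, and the 6 h arrays 2721, 2640 and 2662. In Pokkali the control arrays read 97.22, 91.47 and 103.9, the 3 h arrays 3799, 3992 and 3722, and the 6 h arrays 3365, 3542 and 3430. In IR29 the control arrays read 279.9, 255.9 and 240.2, the 3 h arrays 3894, 3567 and 3466, and the 6 h arrays 1349, 1484 and 1546. In every cultivar each salt array lay above each control array, and each 6 h array lay below each 3 h array.

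**Figure D1:**
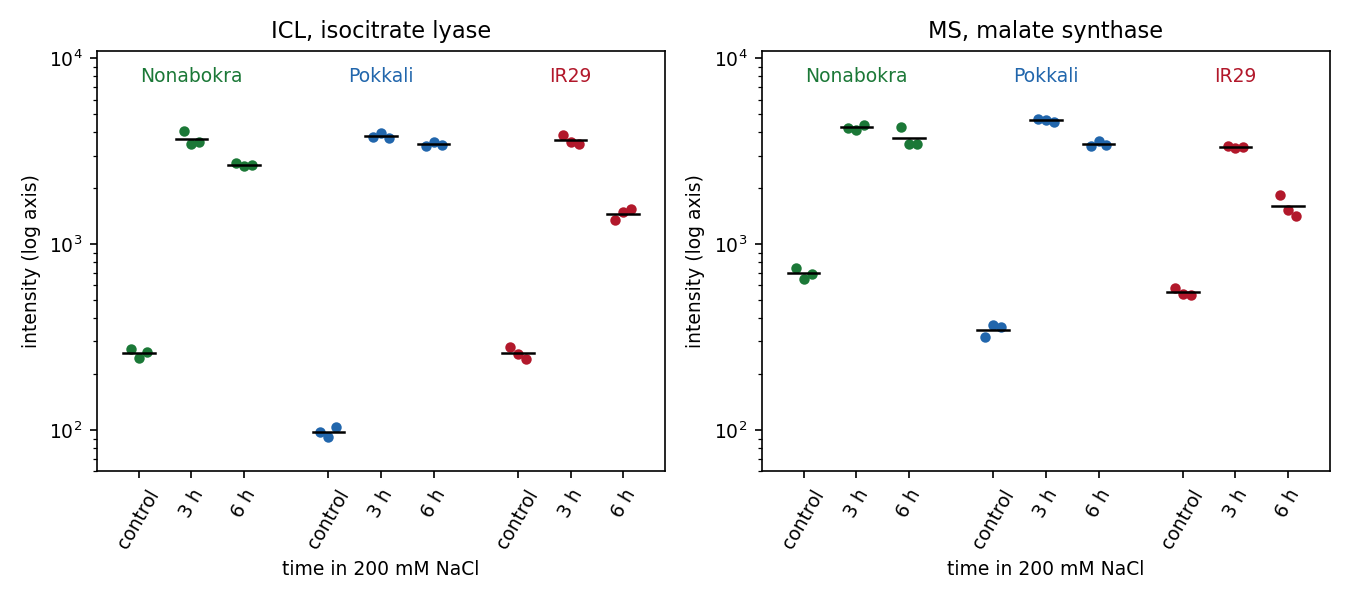
Intensity of ICL (left) and MS (right) on a log axis for each of 27 arrays, by cultivar and time in 200 mM NaCl. Points are arrays and bars are means of 3. The lowest ICL arrays are the unstressed Pokkali ones, 91.47 to 103.9, and at 6 h the IR29 arrays, 1349 to 1546, lie below those of the other cultivars.

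On the log2(intensity + 16) scale, salt minus control was 3.75 ± 0.07 after 3 h and 3.29 ± 0.07 after 6 h for Nonabokra (SE, n = 3 arrays a group). For Pokkali it was 5.09 ± 0.07 and 4.93 ± 0.07, and for IR29 3.74 ± 0.07 and 2.43 ± 0.07. As ratios of mean intensity, ICL under 3 h of salt stood at 14.2 times the control in Nonabokra, 39.4 times in Pokkali and 14.1 times in IR29. After 6 h the ratios were 10.3 in Nonabokra, 35.3 in Pokkali and 5.64 in IR29. Ordered by the size of the increase among all 57194 probe sets, ICL took place 112 for Nonabokra, 6 for Pokkali and 29 for IR29 after 3 h. After 6 h it took place 57 for Nonabokra, 10 for Pokkali and 127 for IR29.

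Ordered by mean level, the groups ran as follows. Pokkali at 3 h was highest with 3838 ± 139 (SD, n = 3 in each group), then Nonabokra at 3 h with 3688 ± 332 and IR29 at 3 h with 3642 ± 224. Pokkali at 6 h had 3446 ± 89.3, Nonabokra at 6 h 2674 ± 41.8 and IR29 at 6 h 1460 ± 101. Unstressed Nonabokra had 258.9 ± 14.6, unstressed IR29 258.7 ± 20 and unstressed Pokkali 97.52 ± 6.21. The arrays of the 3 groups at 3 h overlapped, those of IR29 at 3 h and Pokkali at 6 h overlapped, and those of unstressed Nonabokra and IR29 overlapped. The other neighbours in this order did not overlap.

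Before salt, ICL was lower in Pokkali than in either of the other cultivars. Pokkali stood below IR29 by a log2 difference of -1.27 ± 0.07 (limma adjusted p = 4.3e-12), 97.52 against 258.7. Nonabokra stood above Pokkali by 1.28 ± 0.07 (limma adjusted p = 7e-12), with no overlap in either case. Between Nonabokra and IR29 the difference was 0.00 with a 95% interval of -0.14 to 0.14 (limma adjusted p = 0.98). Of all probe sets, 61.9% passed for Pokkali against IR29, 19.4% for Nonabokra against Pokkali and 56% for Nonabokra against IR29. Most of these differences were small, as only 5.46%, 3.33% and 3.45%, in that order, passed with a difference of at least 2-fold. Passing means an adjusted p under 0.05, with Benjamini-Hochberg adjustment over all 57194 probe sets within a comparison.

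After 3 h of salt no difference in ICL level between cultivars passed, and the arrays of the cultivars overlapped. Pokkali minus IR29 was 0.08 with an interval of -0.06 to 0.22 (limma adjusted p = 0.55). Nonabokra minus IR29 was 0.02 with an interval of -0.12 to 0.16 (limma adjusted p = 1). Nonabokra minus Pokkali was -0.06 with an interval of -0.20 to 0.08 (limma adjusted p = 0.6). The intervals leave room for differences of up to 0.22 on the log2 scale. Of all probe sets, 25.5% passed for Pokkali against IR29 at that time, 23% for Nonabokra against IR29 and 18.2% for Nonabokra against Pokkali.

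After 6 h of salt the 3 cultivars were apart, with ICL highest in Pokkali and lowest in IR29. Nonabokra exceeded IR29 by 0.87 ± 0.07 on the log2 scale (limma adjusted p = 2.6e-09), 2674 against 1460. Pokkali exceeded IR29 by 1.23 ± 0.07 (limma adjusted p = 9.9e-12), 3446 against 1460, so the cultivar with the lowest ICL before salt had the highest after 6 h. Nonabokra was lower than Pokkali by a difference of -0.36 ± 0.07 (limma adjusted p = 0.00031). No arrays of different cultivars overlapped at 6 h. Of all probe sets, 21.6% passed for Nonabokra against IR29, 29.2% for Pokkali against IR29 and 19.4% for Nonabokra against Pokkali.

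**Figure D2:**
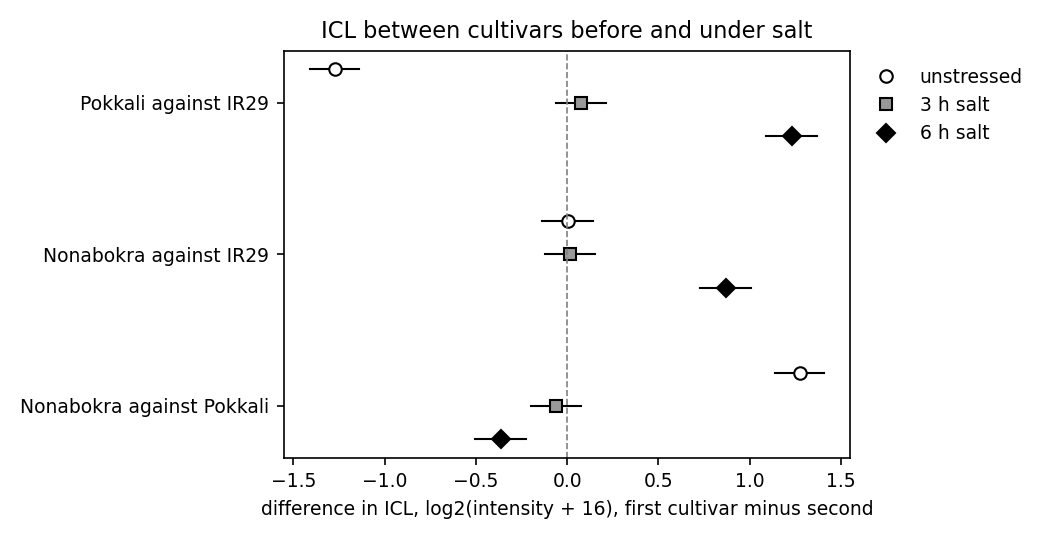
Difference in ICL between cultivars, log2(intensity + 16), first cultivar minus second, for unstressed seedlings, 3 h and 6 h of salt. Points are limma estimates from 3 arrays a group and bars are 95% intervals. Pokkali against IR29 is at -1.27 unstressed, 0.08 at 3 h and 1.23 at 6 h.

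From 3 h to 6 h ICL fell in Nonabokra and IR29, and most in IR29. The 6 h minus 3 h difference was -0.46 ± 0.07 in Nonabokra (limma adjusted p = 2.2e-05), where 2674 at 6 h stood against 3688 at 3 h. It was -1.31 ± 0.07 in IR29 (limma adjusted p = 2.7e-11), where 1460 at 6 h was 0.401 times the 3642 at 3 h. In Pokkali it was -0.15 ± 0.07 and did not pass (limma adjusted p = 0.079, interval -0.29 to -0.02), although its 3 arrays at 6 h all lay under its 3 arrays at 3 h. The Pokkali value passed when only the compared groups entered the fit (limma adjusted p = 0.033) and with array weights (limma adjusted p = 0.011), and over all alternatives its adjusted p ran between 0.011 and 0.19. Between 6 h and 3 h, 21.1% of all probe sets passed in Nonabokra, 28.2% in Pokkali and 14.8% in IR29.

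That change with time was itself compared between cultivars, in a test added once the values had been seen. Nonabokra minus IR29 was 0.85 ± 0.09 (limma adjusted p = 1.8e-06) and Pokkali minus IR29 1.16 ± 0.09 (limma adjusted p = 3.7e-08), so the decline in IR29 was steeper than in either tolerant cultivar. Nonabokra minus Pokkali was -0.30 ± 0.09 (limma adjusted p = 0.039). That last value did not pass after quantile normalization (-0.23, limma adjusted p = 0.13). It also did not pass without Nonabokra 3 h replicate 1 (-0.23, limma adjusted p = 0.12), or without any 1 of 8 other arrays of the 4 groups, with adjusted p between 0.051 and 0.093. Of all probe sets, 11.3% passed for Nonabokra minus IR29, 13.4% for Pokkali minus IR29 and 12.3% for Nonabokra minus Pokkali.

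The poly-A spikes, transcripts added to the RNA before labelling, were lower on the 6 h arrays of every cultivar. Their mean log2 level was 7.86 at 6 h and 9.39 at 3 h in Nonabokra, 8.15 at 6 h and 9.34 at 3 h in Pokkali, and 8.04 at 6 h and 9.32 at 3 h in IR29. In control they averaged 9.81 in Nonabokra, 9.55 in Pokkali and 9.56 in IR29, so 6 h salt against control also compares arrays that differ in the spikes. The shift was not equal between cultivars and was largest in Nonabokra. Its part in the fall of ICL, in the 6 h salt against control values or in the 6 h response differences was not tested. Single arrays at 6 h spanned 7.28 to 8.16 in Nonabokra, 8.12 to 8.18 in Pokkali and 7.56 to 8.28 in IR29. Arrays of a group correlated at 0.9957 to 0.9992, and 3 arrays stood somewhat apart from their groups: IR29 6 h replicate 1, Nonabokra control replicate 3 and Nonabokra 6 h replicate 1. Without all of these the 6 h against 3 h difference of ICL was -1.25 in IR29 (limma adjusted p = 4.8e-09) and -0.47 in Nonabokra (limma adjusted p = 0.00012). Nonabokra minus IR29 at 6 h was then 0.80 (limma adjusted p = 9.2e-07).

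The response to salt, each cultivar against its own control, was compared between cultivars as an interaction. ICL had been chosen for going up in all 3, not for a difference among them. At 3 h the Pokkali response exceeded that of IR29 by 1.35 ± 0.09 on the log2 scale (limma adjusted p = 1.5e-09), and Nonabokra minus Pokkali was -1.34 ± 0.09 (limma adjusted p = 2.3e-09). As levels at 3 h did not differ beyond their spread, these values have the size of the gap between the controls, 1.27 for Pokkali below IR29. The Nonabokra and IR29 responses differed by 0.01 with an interval of -0.18 to 0.21 (limma adjusted p = 0.92). At 6 h all 3 pairs differed: Nonabokra minus IR29 was 0.87 ± 0.09 (limma adjusted p = 1e-06), Pokkali minus IR29 2.51 ± 0.09 (limma adjusted p = 2.1e-13) and Nonabokra minus Pokkali -1.64 ± 0.09 (limma adjusted p = 1.2e-10). In all, 21 comparisons were tested on ICL. At 3 h, 46.9% of all probe sets passed for Pokkali minus IR29, 12.7% for Nonabokra minus Pokkali and 25.4% for Nonabokra minus IR29. At 6 h the shares were 16.2% for Nonabokra minus IR29, 12.8% for Pokkali minus IR29 and 13.7% for Nonabokra minus Pokkali.

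MS, the enzyme that takes up the glyoxylate ICL makes, rose in all 6 comparisons with control. It had been listed as a partner of ICL and was not part of the choice. In Nonabokra its control arrays read 742, 653.2 and 692.8, its 3 h arrays 4246, 4133 and 4370 and its 6 h arrays 4282, 3453 and 3444. In Pokkali the control arrays read 317.2, 366 and 357.2, the 3 h arrays 4747, 4691 and 4535 and the 6 h arrays 3383, 3587 and 3415. In IR29 the control arrays read 582.9, 538.2 and 531.1, the 3 h arrays 3380, 3305 and 3351 and the 6 h arrays 1851, 1534 and 1422. Every MS array under salt was above every control array of its cultivar, and as with ICL the control arrays of Pokkali were the lowest and IR29 at 6 h the lowest under salt.

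The MS changes were 2.58 ± 0.08 after 3 h and 2.39 ± 0.08 after 6 h for Nonabokra (limma adjusted p = 2.5e-15 and 1.8e-14). They were 3.69 ± 0.08 and 3.26 ± 0.08 in Pokkali (limma adjusted p = 2.1e-17 and 2.7e-16), and 2.57 ± 0.08 and 1.51 ± 0.08 in IR29 (limma adjusted p = 5.9e-15 and 3.4e-11). On the same scale each of these is smaller than the value for ICL, a difference that was not tested. ICL, unlike MS, had been chosen for its rise in these comparisons. From 3 h to 6 h MS fell in Pokkali by 0.43 (limma adjusted p = 0.00075) and in IR29 by 1.06 (limma adjusted p = 1.9e-08), while in Nonabokra the difference was -0.20 (limma adjusted p = 0.13) and arrays overlapped. Unstressed MS was lower in Pokkali than in IR29, at -0.64 ± 0.08 (limma adjusted p = 3.9e-06).

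The calls for MS and ICL were not alike throughout, and the difference between the genes was not tested. Unstressed MS was higher in Nonabokra than in IR29 by 0.33 (limma adjusted p = 0.004), where the arrays of ICL overlapped. After 3 h of salt MS was higher in both tolerant cultivars than in IR29, by 0.34 in Nonabokra (limma adjusted p = 0.004) and 0.48 in Pokkali (limma adjusted p = 0.00015), where no difference in ICL passed. After 6 h the Nonabokra and Pokkali arrays of MS overlapped, with a difference of 0.10 (limma adjusted p = 0.47), where Nonabokra was the lower for ICL. The response differences of MS at 6 h were 0.88 ± 0.12 for Nonabokra minus IR29 (limma adjusted p = 1.8e-05), 1.76 ± 0.12 for Pokkali minus IR29 (limma adjusted p = 1.4e-09) and -0.87 ± 0.12 for Nonabokra minus Pokkali (limma adjusted p = 2e-05).

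Over the 27 arrays MS had the highest Pearson r with ICL, 0.986, of 1064 named genes whose group means spanned at least 1 on the log2 scale. The r was 0.989 over the 9 group means, 0.996, 0.996 and 0.99 within Nonabokra, Pokkali and IR29 (9 arrays each), and 0.899 over the 18 salt arrays alone. Spearman's rho was 0.873, in place 18. These are descriptions: the arrays fall into control and salt clusters, and genes with a large salt response share that split.

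**Figure D3:**
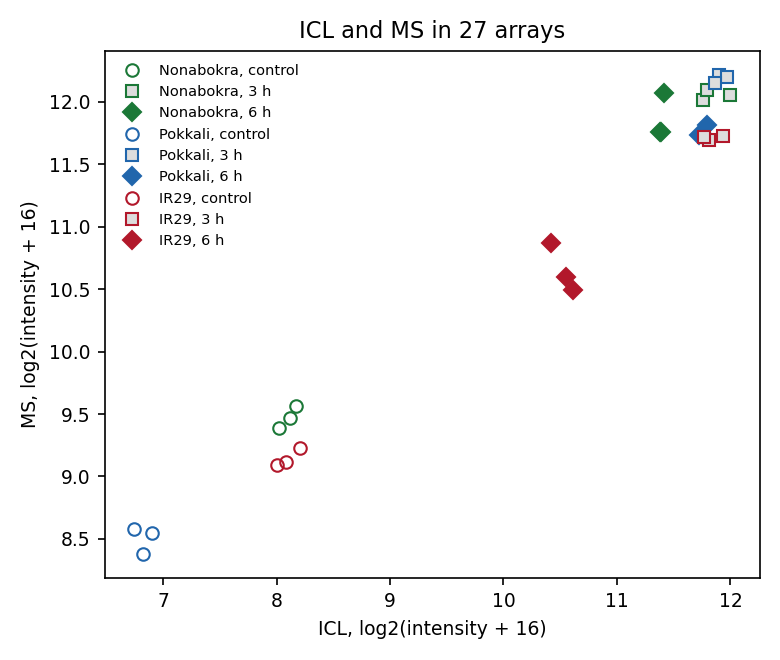
ICL against MS, both as log2(intensity + 16), for 27 arrays by cultivar (colour) and treatment (marker). Control arrays lie at the lower left with Pokkali lowest, the 3 IR29 arrays at 6 h lie between, and the other salt arrays lie together at the upper right.

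The rest of the pathway was read through 7 lists holding 32 genes, drawn up with earlier results of these data known. Members were limited to genes that the gene tables name, and no gene of citrate synthase, malate dehydrogenase, acyl-CoA oxidase, oleosin or phosphoenolpyruvate carboxykinase was matched. After 3 h, 13 of the 32 rose and 9 fell for Nonabokra, 13 rose and 10 fell for Pokkali, and 18 rose and 8 fell for IR29. After 6 h, 12 rose and 10 fell for Nonabokra, 10 rose and 8 fell for Pokkali, and 17 rose and 5 fell for IR29.

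Over all 17905 genes, 27.4% rose and 30.2% fell for Nonabokra after 3 h, and 22.4% rose and 24.7% fell after 6 h. For Pokkali 24.9% rose and 28.2% fell after 3 h, and 21.2% rose and 22.3% fell after 6 h. For IR29 32.7% rose and 31.4% fell after 3 h, and 26% rose and 27% fell after 6 h. The median change of the 32 genes lay between 0.07 and 0.21 in the 6 comparisons. The pathway genes did not all follow ICL, and large rises came from few of them.

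**Figure D4:**
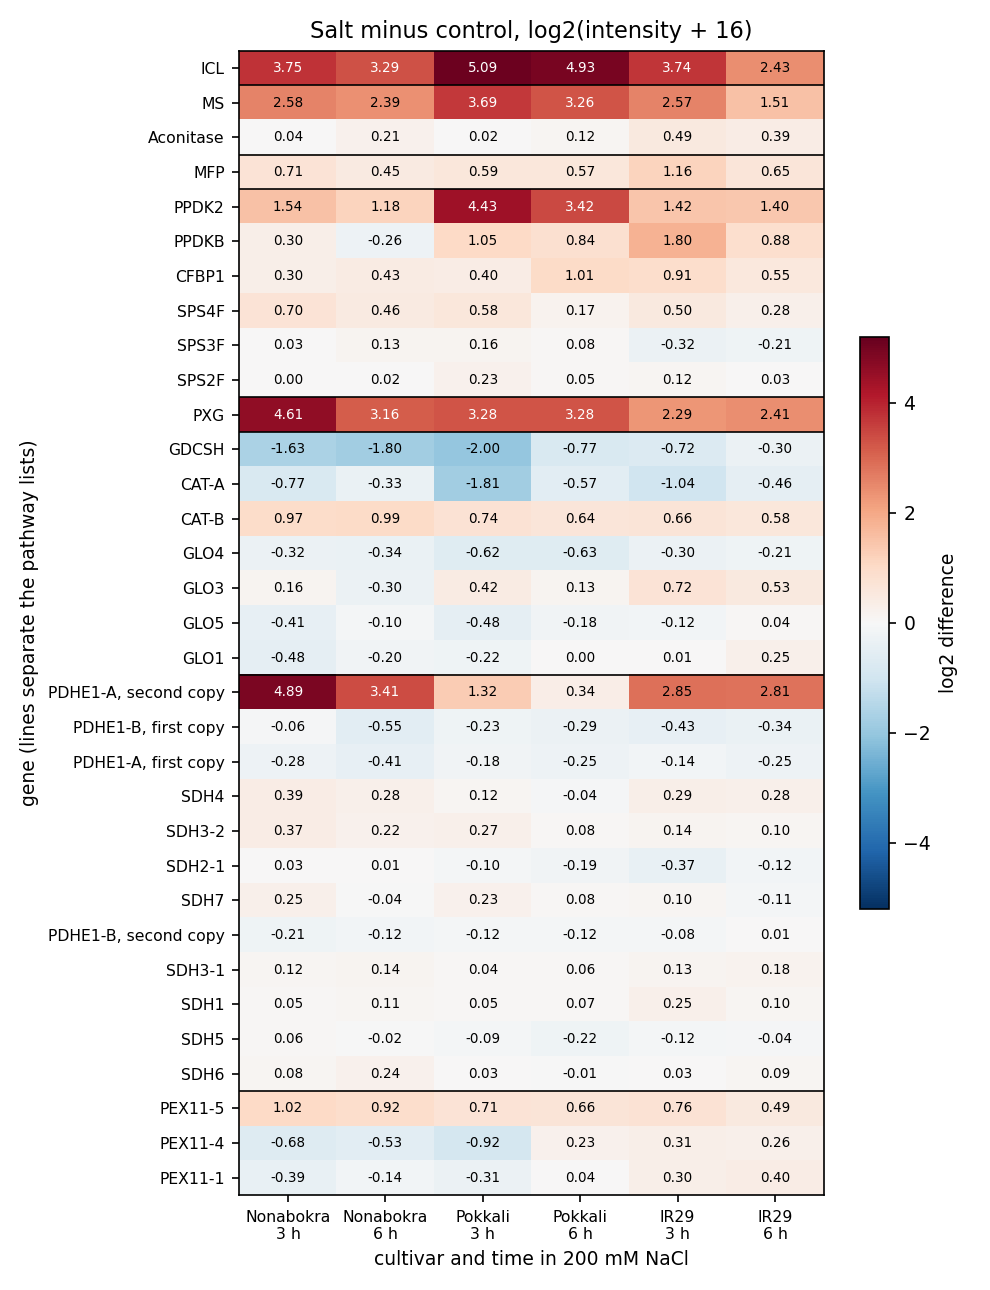
Salt minus control, log2(intensity + 16), for ICL and 32 genes of 7 pathway lists in the 6 comparisons. Numbers are limma estimates from 3 arrays a group, and lines separate the lists. ICL, MS, PXG, PPDK2 and PDHE1-A, second copy, reach 2.5 or more, and most other values lie within 1 of 0.

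Aconitase, which makes isocitrate from citrate and was the only other matched partner in the cycle, is named here after its values were seen. It rose in IR29 by 0.49 at 3 h (limma adjusted p = 9.7e-05) and by 0.39 at 6 h (limma adjusted p = 0.0013). It did not pass in Nonabokra (0.04 and 0.21) or in Pokkali (0.02 and 0.12). MFP, the multifunctional protein of peroxisomal fatty acid beta-oxidation, rose in all 6 comparisons by 0.45 to 1.16, most in IR29 at 3 h with a mean of 6344 under salt against 2826 in control (limma adjusted p = 2.4e-08). It was the 1 matched gene of beta-oxidation, the route that supplies acetyl-CoA to the cycle. In Nonabokra at 6 h the rise of MFP did not pass in a fit of the compared groups alone (limma adjusted p = 0.088).

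PXG, a peroxygenase of the caleosin family of oil body proteins, rose in all 6 comparisons. Under 3 h of salt it averaged 4791 ± 182 against 181.5 ± 18.6 in control in Nonabokra (SD, n = 3 each). In Pokkali it averaged 2667 ± 60.4 against 261.6 ± 30.3, and in IR29 1608 ± 49.9 against 317.7 ± 27.5. The log2 changes of PXG at 3 h were 4.61, 3.28 and 2.29 in these cultivars, with limma adjusted p from 4.7e-19 to 4.7e-14. At 3 h Nonabokra had the largest estimate for PXG and Pokkali the largest for ICL.

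The list of gluconeogenesis and sucrose synthesis held 6 genes, of which between 3 and 5 rose in each comparison. Over all genes between 21.2% and 32.7% rose. In the list 1 gene fell in Nonabokra at 6 h (PPDKB) and 1 in IR29 at 3 h. The latter was SPS3F (-0.32), a sucrose-phosphate synthase named after its values were seen. PPDK2, a pyruvate phosphate dikinase, averaged 492.6 ± 55.7 under 3 h of salt against 7.54 ± 0.80 in control in Pokkali, a change of 4.43 (limma adjusted p = 5.4e-19). In Nonabokra PPDK2 averaged 68.91 against 13.27 and in IR29 46.05 against 7.08, changes of 1.54 and 1.42. The size of these changes depended on the processing: over the alternatives other than those leaving out 1 array, they ran between 2.95 and 5.85 in Pokkali, 0.78 and 2.29 in Nonabokra and 0.63 and 2.54 in IR29. Its probe set is of a type whose probes can match several transcripts. PPDKB, a second pyruvate phosphate dikinase, rose most in IR29 at 3 h (1.80), rose in Pokkali at both times (1.05 and 0.84), and in Nonabokra was higher at 3 h (0.30) and lower at 6 h (-0.26).

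CFBP1, cytosolic fructose-1,6-bisphosphatase, rose in all 6 comparisons by 0.30 to 1.01. SPS4F, a sucrose-phosphate synthase, rose in 5 by 0.28 to 0.70, and in Pokkali at 6 h its change of 0.17 did not pass. The rise of SPS4F in IR29 at 6 h did not pass in a fit of the compared groups (limma adjusted p = 0.14), with array weights (0.14, limma adjusted p = 0.15), without IR29 6 h replicate 1 (0.21) or without the 3 distant arrays (0.21).

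Photorespiration also passes glyoxylate through peroxisomes. Of the 7 genes of its list, which includes the catalases, 5 fell and 2 rose at 3 h in both Nonabokra and Pokkali. Over all genes at 3 h, 30.2% fell and 27.4% rose in Nonabokra, and 28.2% fell and 24.9% rose in Pokkali. GLO1, a glycolate oxidase named after its values were seen, is counted among these falls (-0.48 and -0.22). A second GLO1 probe set gave 0.67 in Nonabokra and 0.24 in Pokkali. In IR29 at 3 h 3 fell and 2 rose. At 6 h 4 fell and 1 rose in Nonabokra, 4 fell and 2 rose in Pokkali, and 3 fell and 3 rose in IR29. GDCSH, the H protein of glycine decarboxylase, fell to 1190 in Pokkali at 3 h, against 4796 in control (a change of -2), and fell in every comparison, least in IR29 at 6 h (-0.30). A second GDCSH probe set gave values between -0.07 and -0.22. Among the catalases, which break down the hydrogen peroxide that peroxisomes make, CAT-A fell in all 6 comparisons by 0.33 to 1.81 and CAT-B rose in all 6 by 0.58 to 0.99, though other probe sets of CAT-B disagreed in sign in Pokkali and IR29. GLO4, a glycolate oxidase, fell by 0.21 to 0.63, with the IR29 6 h call lost in a fit of the compared groups (limma adjusted p = 0.11) and without IR29 control replicate 3. GLO3, a glycolate oxidase named after its values were seen, rose in 5 comparisons by 0.13 to 0.72 and fell in Nonabokra at 6 h (-0.30).

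Of 12 genes of pyruvate dehydrogenase and succinate dehydrogenase, which take carbon into and through the citric acid cycle, most moved little, with list medians between -0.03 and 0.07. The exception was PDHE1-A, second copy, 1 of 2 genes listed for the pyruvate dehydrogenase E1 alpha subunit. It averaged 1256 under 3 h of salt against 27.08 in control in Nonabokra, 968.1 against 377.2 in Pokkali and 171.2 against 9.81 in IR29. The log2 changes were 4.89, 1.32 and 2.85, and over the alternatives other than those leaving out 1 array the value in Nonabokra ran between 3.86 and 5.5 and the value in IR29 between 1.67 and 3.99. Its control level was highest in Pokkali, where ICL was lowest. PDHE1-A, first copy, fell in all 6 comparisons by 0.14 to 0.41. Its call in IR29 at 3 h was lost in 7 of 38 alternatives: the compared groups alone, quantile normalization (-0.09), median centring, and single arrays left out (IR29 control replicates 2 and 3, IR29 3 h replicates 2 and 3). Its call in Pokkali at 3 h was lost without control replicate 2, control replicate 3 or 3 h replicate 1, and that in IR29 at 6 h in a fit of the compared groups. PDHE1-B, first copy, of the beta subunit, fell in 5 by 0.23 to 0.55, with the IR29 6 h call lost in a fit of the compared groups (limma adjusted p = 0.066). SDH4, a subunit of succinate dehydrogenase, which takes up the succinate that ICL releases, rose by 0.28 to 0.39 in Nonabokra and IR29 and did not pass in Pokkali (0.12 and -0.04), with the Nonabokra 6 h call lost in a fit of the compared groups (limma adjusted p = 0.16).

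The 3 measured genes of peroxisome proliferation did not move as 1 group. PEX11-5 rose in all 6 comparisons by 0.49 to 1.02. PEX11-4 fell in Nonabokra at both times and in Pokkali at 3 h (-0.68, -0.53 and -0.92), and rose in IR29 (0.31 and 0.26). The rise of PEX11-4 in IR29 at 6 h did not pass in 8 of 38 alternatives: the compared groups alone, quantile normalization (0.24), array weights (0.17), the 3 distant arrays left out, and single arrays left out (IR29 control replicates 2 and 3, IR29 6 h replicates 1 and 2; 0.18 without the 6 h replicate 1). PEX11-1 fell in Nonabokra at both times and in Pokkali at 3 h (-0.39, -0.14 and -0.31), and rose in IR29 (0.30 and 0.40). Its fall in Nonabokra at 6 h also did not pass in 8 of 38: the compared groups alone, quantile normalization (-0.07, limma adjusted p = 0.46), the 3 distant arrays left out, and single arrays left out (Nonabokra control replicates 2 and 3 and each Nonabokra 6 h array).

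After MS, the named genes most like ICL over the 27 arrays were myb30, ARD1, HO1, MCCA, GA20OX3, EL2 and Alpha-ETF, with r between 0.95 and 0.974. A median gene of the 1064 had an r of 0.13, and 24 genes reached 0.9. The same 8 genes led over the 9 group means, but only 2 of them were among the first 8 by Spearman's rho. Over the 18 salt arrays alone the r of myb30 was 0.557 and that of MCCA 0.625, so for these the likeness lay largely in the step between control and salt. Samples, not genes, are the points here, and no p is given.

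The roles of these genes are diverse. MCCA is a subunit of methylcrotonyl-CoA carboxylase of leucine breakdown and averaged 2038 in Pokkali under 3 h of salt, against 588.5 in control. Alpha-ETF, a subunit of the electron transfer flavoprotein that passes electrons from such breakdown to the respiratory chain, averaged 7190 in Pokkali under 3 h of salt, against 1870 in control. HO1 is haem oxygenase, needed for the phytochrome chromophore, and GA20OX3 is an oxidase of gibberellin synthesis. EL2 is an inhibitor of cyclin-dependent kinases, and myb30 encodes a MYB transcription factor. ETF-QO and D2HGDH, mitochondrial enzymes that hand electrons on from or to that flavoprotein, are named after their values were seen. Their r of 0.935 and 0.934 put them in places 12 and 14. OSL2, NAC048 and PXG stood ahead of both, and P5CS1 stood between them. Over the 18 salt arrays alone their r was only 0.381 and 0.444.

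The salt changes of these 7 genes were smaller than those of ICL in all 6 comparisons, on which ICL had been chosen for its rise. For ARD1 they were 1.84 and 1.72 in Nonabokra at 3 h and 6 h, 3.18 and 2.33 in Pokkali, and 1.96 and 1.14 in IR29, with the largest in Pokkali as for ICL. For EL2 they were 2.24 and 1.65 in Nonabokra, 1.95 and 1.61 in Pokkali and 1.29 and 0.76 in IR29, so that gene led in Nonabokra. At the other end stood OsTUB6 (r = -0.931) and OSTB-34 (r = -0.918), both beta-tubulins, OsTBL6 (r = -0.896) and PORB (r = -0.889), an enzyme of light-dependent chlorophyll synthesis. OsTUB6 averaged 2017 in Pokkali under 3 h of salt, against 5374 in control.

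**Figure D5:**
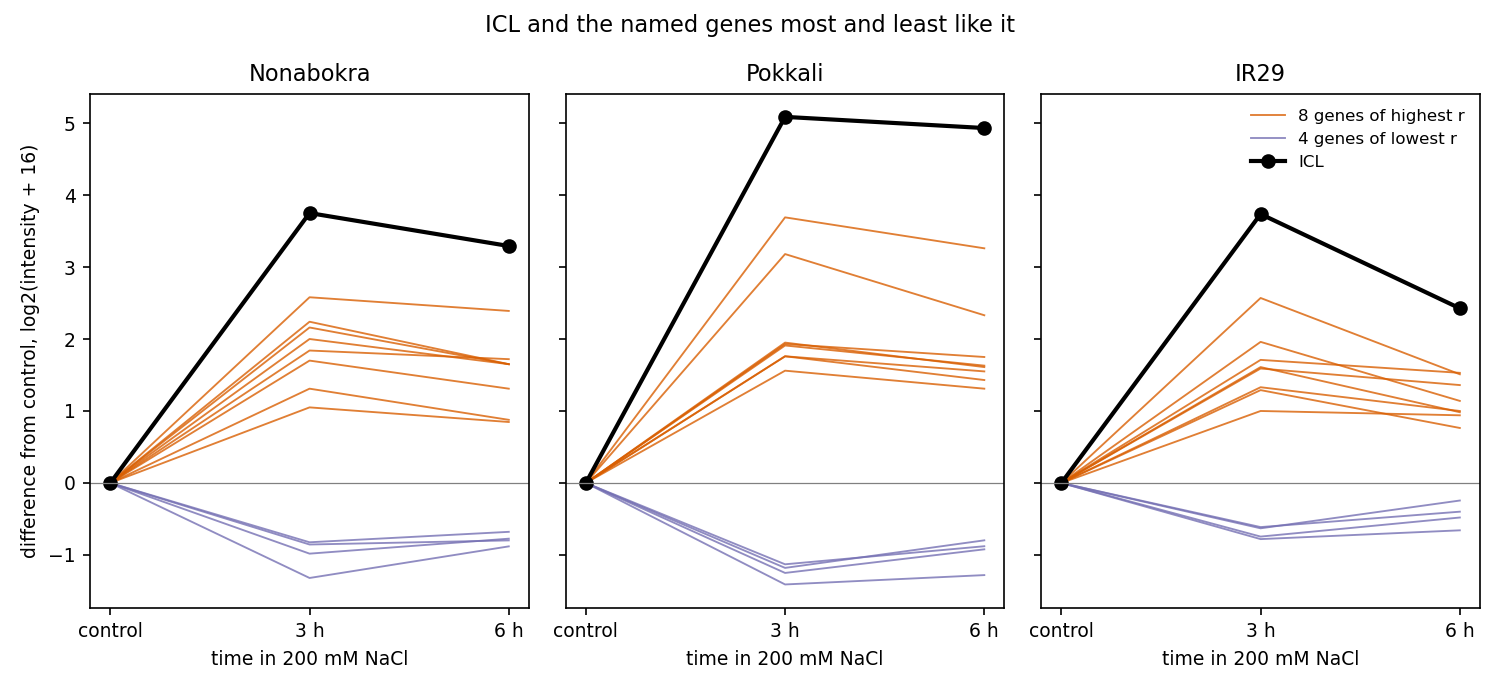
Difference from the control mean, log2(intensity + 16), at control, 3 h and 6 h in each cultivar for ICL (black), the 8 named genes of highest r with it (orange) and the 4 of lowest r (purple). Lines join group means of 3 arrays. All lines start at 0 in control by construction. ICL, chosen for its rise in these comparisons, lies above all 8 at 3 h and 6 h in each cultivar. Its peak is 5.09 in Pokkali at 3 h.

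Of the 5 genes on each side of ICL in the RefSeq gene order, 4 had a probe set, all on the same side. LOC4343443 fell at 3 h in all cultivars, with log2 changes between -1.57 and -1.5, and was within 0.2 of control at 6 h. LOC4343444 fell in 5 comparisons by 0.59 to 1.13. GOS2, known in rice as a translation initiation factor gene, differed by -0.02 to 0.34 and LOC4343446 by -0.31 to 0.29. None of the 4 rose by as much as ICL in any comparison. ICL was chosen for its rise in these same comparisons, so this order follows largely from the choice.

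Markers of tissues in which ICL could be expressed were read beside it. Of 3 markers of germinating aleurone and scutellum, the alpha-amylases AMY1.1 and AMY3D and the proteinase EP3A, all 3 rose in IR29 at 3 h, 2 rose in Pokkali at 3 h, and in Nonabokra at 3 h 2 fell and 1 rose. Their summed intensity was 162.6 to 221.9 in Nonabokra at 3 h against 3508 to 3795 in control, and 171.1 to 197.5 in Pokkali at 3 h against 20.14 to 20.86 in control. In IR29 it was 24060 to 27050 at 3 h against 150 to 193.5 in control. At 6 h it was 20.2 to 20.71 in Nonabokra, 64.83 to 73.01 in Pokkali and 215.2 to 267.4 in IR29. By calls at 6 h, 2 fell and 1 rose in Nonabokra, 1 rose in Pokkali, and 1 rose and 1 fell in IR29. The IR29 sum at 3 h was mostly AMY1.1, which averaged 24130 there, 162.2 in control and 6.61 at 6 h. AMY3D averaged 237 in IR29 at 6 h against 8.92 in control. EP3A was near the floor of the array in Pokkali in every group, at 5.12 to 5.24 on average. In Nonabokra the sum was nearly all AMY1.1, at 176.3 under 3 h of salt against 3440 in control, while AMY3D rose by 0.31. That rise was between dim values, from a mean of 5.31 in control to 10.33. A second AMY3D probe set was flat at 3 h, at -0.0019 in Nonabokra, 0.001 in Pokkali and -0.0068 in IR29. In IR29 at 6 h it was at -0.0056.

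The summed level of 4 root markers was lower under salt in all cultivars. It was 2035 to 2168 in Nonabokra at 3 h against 7539 to 8405 in control, 1203 to 1416 in Pokkali against 4882 to 5069, and 557.7 to 622 in IR29 against 8940 to 9883. These sums rest mainly on the bright silicon transporters NIP2-1 and Lsi2, which fell in all 3 cultivars at 3 h. IRT1, an iron transporter, rose in Nonabokra by 0.66 after 3 h and by 0.64 after 6 h. CASP1, a Casparian strip protein, rose there by 0.70 and 0.67. These rises were between dim values. Under 3 h of salt IRT1 averaged 29.19 against 12.33 in control, and CASP1 28.37 against 11.22. Other CASP1 probe sets in Nonabokra gave only 0.09 and 0.06 after 3 h, and 0.11 and 0.13 after 6 h. In Pokkali CASP1 rose at both times (0.97 and 0.45) and IRT1 did not pass (-0.16 and -0.11). All 4 fell in IR29 at 3 h. Of 6 leaf and photosynthesis markers, at 3 h 1 rose and 2 fell in Nonabokra and in Pokkali, and 1 rose and 3 fell in IR29. RCA, Rubisco activase, was the one that rose (0.36, 0.74 and 0.65), and RCABP69, a chlorophyll-binding protein, fell (-0.38, -0.48 and -0.27). At 6 h 3 fell in Nonabokra, 2 fell in Pokkali, and 2 rose and 1 fell in IR29. The lowest value in IR29 at 6 h was that of RBCS1, -0.05, and at 3 h RBCS1 was at -0.08. RBCS1 was near the array floor in every group, with means of 8.21 to 9.96. The shares of all genes that rose or fell in these comparisons are given above. The sum of the 6 leaf markers at 3 h was 112200 to 119800 in Nonabokra against 117700 to 123700 in control, 113800 to 114600 in Pokkali against 121500 to 125200, and 116700 to 123200 in IR29 against 117000 to 119300. At 6 h it was 105800 to 112000 in Nonabokra and 114000 to 117300 in Pokkali, and in IR29 128000 to 132600, above its control. Seed storage markers summed to between 202.7 and 374.9 on every array, with 1 of 3 higher in Nonabokra and in Pokkali at 3 h and 1 of 3 lower in IR29. At 6 h 1 of 3 was lower in Nonabokra and in Pokkali, and 2 of 3 in IR29. These sums rest mainly on GLUA2, as GLUA1 and PROLM25 were near the array floor. GLUA2 changed by -0.53, -0.39 and -0.22 in Nonabokra, Pokkali and IR29 at 6 h, and a second probe set by -0.07, -0.04 and -0.01. The lower marker in IR29 at 3 h was not GLUA2 (0.09). The part of all these markers in the ICL values was not tested.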

How the data were processed

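Biotin-labelled RNA of 27 samples was hybridised to Affymetrix rice arrays, 3 per group. The deposited values are linear intensities per probe set made by the authors; per the submitters' processing notes the tool was GCOS, and summarisation, normalization and genome build are not given in the sources used here. Array medians lay between 7.09 and 7.77, so no scaling was added. Of 57381 probe sets 187 controls were left out. limma 3.58.1 (R 4.3.3) was fitted to log2(intensity + 16), 1 mean per group, all arrays together (18 residual degrees of freedom), with Benjamini-Hochberg adjustment over 57194 probe sets. The pseudocount of 16 shrinks changes of dim probe sets. Precision rests on how many arrays there are, and the residual SD of ICL was 0.08 on the log2 scale. Probe sets were named through platform annotation updated with RefSeq gene tables (assembly ASM3414082v1, used for names and gene order only): 22436 had 1 gene, 95 several and 34663 none. A gene was read by its probe set of highest mean.

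Members and lists were chosen with earlier results of these data known. Genes named are ICL, MS, up to 4 genes of each list with the largest mean absolute change among those passing, and the 8 most and 4 least like ICL. Marker lists covered root (IRT1, CASP1, NIP2-1, Lsi2), leaf, seed storage, and germinating aleurone and scutellum. Alternatives were trended and robust spread, the compared groups alone, dim probe sets left out, quantile normalization, median centring, pseudocounts of 1 and 64, a threshold of 0.01, array weights (gene-by-gene estimate), a replicate block and leaving out each array, with 3 distant arrays left out together added later. The procedure was tested on simulated data. Promoter and protein sequences of ICL were not analysed here.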

Additional observations from a re-analysis of the deposited data

Results flagged for a closer look

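The response of ICL to salt differed between cultivars by the interaction test in 5 of 6 comparisons. At 3 h the differences were 1.35 for Pokkali minus IR29 and -1.34 for Nonabokra minus Pokkali, and at 6 h 0.866 for Nonabokra minus IR29, 2.51 for Pokkali minus IR29 and -1.64 for Nonabokra minus Pokkali, all on the log2 scale. The change of ICL from 3 h to 6 h also differed, by 0.852 for Nonabokra minus IR29 and 1.16 for Pokkali minus IR29. For Nonabokra minus Pokkali it differed by -0.303, a call lost after quantile normalization and without any 1 of 9 arrays.

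MS was picked out in the same way. Its response differed at 3 h by 1.12 for Pokkali minus IR29 and -1.11 for Nonabokra minus Pokkali. At 6 h it differed by 0.882 for Nonabokra minus IR29, 1.76 for Pokkali minus IR29 and -0.875 for Nonabokra minus Pokkali. Its change from 3 h to 6 h differed by 0.867 for Nonabokra minus IR29 and 0.637 for Pokkali minus IR29.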

How the results depend on the processing

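Of 798 values of the tested ICL comparisons under the alternatives, 770 kept direction and side of the threshold. Nonabokra minus IR29 changed sign where it was near 0: unstressed it was -0.052 after quantile normalization, -0.00599 without the 3 distant arrays and -0.0464 to 0.0574 with single arrays left out. At 3 h of salt it was -0.00203 after quantile normalization and -0.0563 to 0.0649 with single arrays left out, and the 3 h response difference was -0.00474 after median centring, -0.00824 with array weights and -0.0587 to 0.0625 with single arrays left out. Pokkali at 6 h against 3 h passed in a fit of the compared groups (-0.155) and with array weights (-0.161). The change from 3 h to 6 h, Nonabokra minus Pokkali, was no longer past the threshold after quantile normalization (-0.23) and ran between -0.348 and -0.231 with single arrays left out, of which 9 lost the call. The causes were not tested.

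Salt minus control of ICL moved with the pseudocount by construction: with 64 it was 3.54 and 3.08 in Nonabokra, 4.59 and 4.44 in Pokkali and 3.52 and 2.24 in IR29 (3 h and 6 h), and with 1 it was 5.29 and 5.13 in Pokkali. Pathway genes that fell in IR29 numbered 4 at 3 h and 2 at 6 h in a fit of the compared groups, and 5 to 8 at 3 h with single arrays left out. All probe sets passing in IR29 at 3 h numbered 36580 in the main analysis, 18732 in a fit of the compared groups, 19048 without the dimmest 40% and 20237 after quantile normalization. At 6 h they numbered 30525, against 7160, 13473 and 15223 under those settings, 17945 at a threshold of 0.01 and 18125 to 33040 with single arrays left out. In Pokkali at 6 h they numbered 12729, and 26143 with array weights. Of 4484 values for other named genes, 36 lost their call and 0 changed sign.

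Groups share replicate numbers, but same-numbered arrays deviated together in all 3 pairs for only 2 of 36 pairs of groups. The numbers were therefore not taken as pairs. In Nonabokra with IR29 at 6 h the deviations correlated at 0.72, 0.42 and 0.4. In unstressed Nonabokra with unstressed Pokkali they correlated at 0.47, 0.16 and 0.19. With a replicate block, ICL at 6 h was 0.87 in Nonabokra minus IR29 (limma adjusted p = 1.1e-08). Pokkali minus IR29 was then 1.23 (limma adjusted p = 7.9e-11), and the block changed no call on ICL. With 3 arrays a group, small differences are poorly resolved, and dim probe sets such as PPDK2 in control seedlings have levels set partly by the array floor.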
